A study of Mus musculus with 6 samples.

Results

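The 9 genes described here encode transcription factors that mark intermediate progenitors and projection neurons of the cerebral cortex, and the question was where Gli3 was bound around them. The members are all rows of the Gli3 ChIP-seq peak list whose midpoint lay inside the body of *Eomes*, *Tbr1*, *Bcl11b*, *Fezf2*, *Cux1*, *Cux2*, *Pou3f2*, *Pou3f3* or *Rorb*, or within 100 kb of the gene-level transcription start site (TSS) in the GENCODE M21 annotation of mm10. There were 14 such sites among the 4114 of the list, around 7 of the 9 genes. The rule uses positions alone, and the 9 genes were chosen with earlier results of these data known. The copy of the list used here may not hold every site of the study, so a gene is called without a site only as far as these rows go. The list came from chromatin immunoprecipitation of the cortex of wild-type mice at embryonic day 15 with a Gli3 antibody, in 3 ChIP libraries set against 3 input libraries, made from sheared chromatin without the antibody step. The mouse strain and the number of embryos per library are not given in the sources used here. The replicates were joined in 1 list that gives a position for each site but no height, so no error between embryos can be given, the read depth behind a site is unknown here, and the values below are a description with no test. The tissue holds progenitors, newborn neurons and other cells of the cortex together, so a site cannot be assigned to a cell type, and with no expression values the dissected tissue could not be checked against its marker genes.

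Radial glia of the dorsal telencephalon produce excitatory projection neurons, often through intermediate progenitors that express *Eomes*. Deep-layer neurons, which include the corticothalamic cells that express *Tbr1* and the subcerebral cells that depend on *Fezf2* and *Bcl11b*, are born before the upper-layer neurons marked by *Cux1* and *Cux2*. *Pou3f2* and *Pou3f3* encode POU domain factors of late progenitors and upper-layer neurons, and *Rorb* encodes a nuclear receptor of the layer that receives thalamic input. Gli3 is a zinc finger factor of the Hedgehog pathway, which in the absence of the signal is processed to a repressor and which recognises a sequence with the core GACCACCCA, here called the GLI core.

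A site was present in the windows of 7 of the 9 genes (77.8%, 95% Wilson interval 45.3 to 93.7%), where 37.4% of the 21938 protein-coding genes had at least 1 site by the same rule. *Fezf2*, *Cux2* and *Pou3f3* had 3 sites each, a number reached by 4.33% of protein-coding genes. *Eomes* had 2 sites, *Bcl11b*, *Cux1* and *Pou3f2* had 1, and *Tbr1* and *Rorb* had none. The median was 1 site per gene against 0 over all protein-coding genes. The windows of *Cux1*, *Cux2* and *Rorb* were longer because of the length of these genes, at 419, 294 and 281 kb against 200 kb for the other 6. Over the summed windows of the 9 genes there were 0.638 sites per 100 kb, against 0.269 over the windows of all protein-coding genes and 0.150 over the chromosomes as a whole. Whether the 9 genes differ from other genes in this respect was not tested, and the site counts of single genes carry no error. The plot of sites by distance shows all 14.

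**Figure D1:**
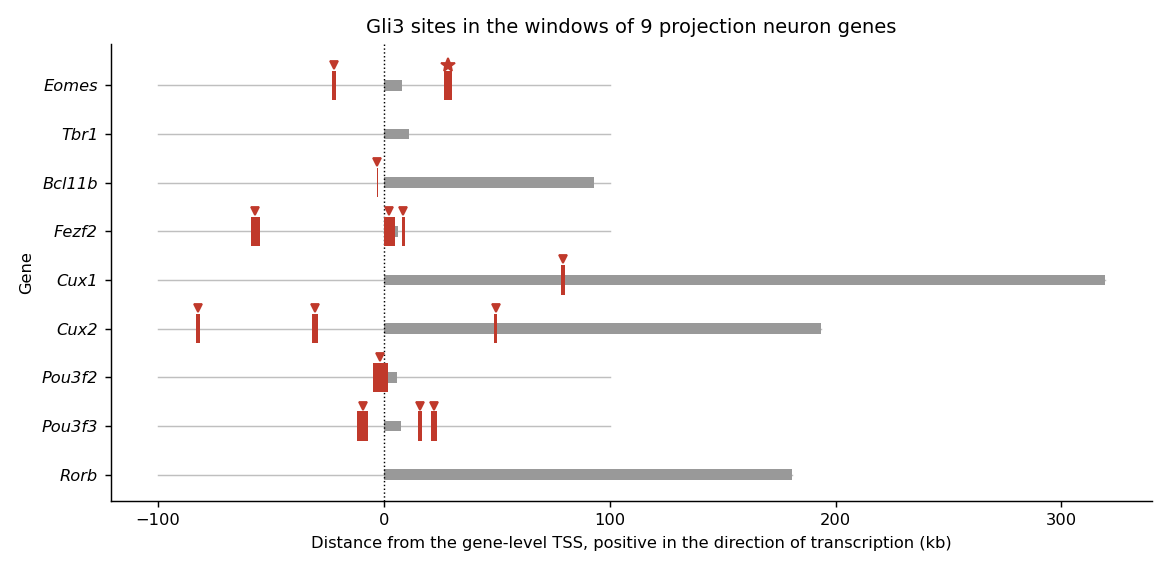
Gli3 sites around the 9 genes by distance in kb from the gene-level TSS, positive in the direction of transcription. Thin lines are the windows, grey bars the gene bodies and red blocks the 14 sites to scale, with a triangle at each midpoint and a star for the site with an exact GLI core near *Eomes*; *Tbr1* and *Rorb* have no site.

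The position of the sites relative to the genes varied. The midpoints of 7 of the 14 were upstream of the TSS and those of 7 downstream. The midpoint was within 10 kb of the TSS at 5 sites and within 50 kb at 11. It was inside the gene body at 3 sites, in *Fezf2*, *Cux1* and *Cux2*. The bodies of *Eomes*, *Tbr1*, *Fezf2*, *Pou3f2* and *Pou3f3* are short, at 5.59 to 11.2 kb in windows of 200 kb. The farthest member was a site 82.3 kb upstream of the *Cux2* TSS, and the closest site left out was 147 kb upstream of that of *Cux1*. For 11 of the 14 sites (78.6%, 95% Wilson interval 52.4 to 92.4%) the nearest protein-coding TSS was that of the gene that brought it in. The other 3 lay nearer to *Golga4*, *Myl2* and *Ccdc63*. No other protein-coding TSS lay in the windows of *Bcl11b*, *Cux1*, *Pou3f2* or *Pou3f3*. The same shares over the windows of all protein-coding genes were not worked out, so these positions only describe the 14 sites. Promoter sites were those with their middle at most 2 kb from the start of a transcript of any kind, coding or noncoding. There were 7 promoter sites of 14 (50%, 95% Wilson interval 26.8 to 73.2%) against 45.5% of all sites. A site covered the gene-level TSS itself at 2 of the 9 genes, *Fezf2* and *Pou3f2*, against 6.22% of protein-coding genes.

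*Eomes* (ENSMUSG00000032446.14) encodes the T-box factor Tbr2 and lies on the plus strand of chromosome 9 from 118478212 to 118486132 in mm10. Its nearest site, chr9:118455146-118457024, was 1879 bp wide, had its midpoint 22.1 kb upstream of the TSS in intergenic sequence, and overlapped no annotated gene. It contained neither an exact GLI core nor a match with 1 mismatch. The other site, chr9:118504989-118508371, was 3383 bp wide and 28.5 kb downstream of the *Eomes* TSS. Its midpoint was 413 bp from the TSS of *Golga4*, which encodes a golgin of the trans-Golgi network, and the site contained the starts of 3 *Golga4* transcripts. *Golga4* was the only other protein-coding gene with its TSS in the *Eomes* window. This was also the only one of the 14 sites with an exact GLI core. The core, on the plus strand from 118506671 to 118506679, was 5 bp from the middle of the site, and it is shown with 20 bases on either side and the core in capitals, in no annotated coding sequence or UTR, because no other member site held the full core.
Golga4 promoter site, chr9:118506651-118506699, plus strand: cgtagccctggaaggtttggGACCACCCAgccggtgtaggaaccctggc

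*Tbr1* (ENSMUSG00000035033.15), on the plus strand of chromosome 2 from 61802930 to 61814114, encodes the T-box factor of corticothalamic neurons and had no site in its window. The nearest sites on either side were 1006 kb downstream, nearest to *Gca*, and 1015 kb upstream, nearest to *Itgb6*. Of all protein-coding genes, 11.7% had their nearest site at least as far away. *Bcl11b* (ENSMUSG00000048251.15) encodes the zinc finger factor Ctip2 and spans 107910403 to 108003602 on chromosome 12, minus strand. Its single site, chr12:108006288-108006759, was centred 2.92 kb upstream of the TSS. The site was 472 bp wide, and 98.3% of the sites on chromosomes were at least as wide. It was also rich in GC, at 61.4%, a value reached by 6.90% of the sites. It held no GLI core, exact or with 1 mismatch. No site touched the 93.2 kb of the gene itself. The next site on the downstream side was 245 kb from the TSS, beyond the 3′ end of the gene, and *Bcl11b* was still the nearest protein-coding gene to it.

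*Fezf2* (ENSMUSG00000021743.6), a zinc finger factor that specifies subcerebral projection neurons, spans 12342094 to 12348189 on chromosome 14, minus strand. It had 3 sites, and the nearest protein-coding TSS of each was its own. The widest, chr14:12343458-12348251, measured 4794 bp and covered 77.6% of the gene and 81.1% of its coding sequence, together with the starts of all 3 annotated transcripts. Its midpoint was 2.34 kb downstream of the gene-level TSS but 10 bp from the start of the main coding transcript of *Fezf2*. The RefSeq start of *Fezf2* was likewise 2324 bp downstream of the gene-level TSS and 11 bp from the middle of the site. Another site, chr14:12338974-12340230, began on the other side of a gap of 3227 bp, in the sequence 8.59 kb downstream of the TSS, and was 1257 bp wide. The third, chr14:12403159-12406983, was 3825 bp wide and 56.9 kb upstream of *Fezf2*, inside *Cadps*, a gene of dense-core vesicle release. It contained the start of the noncoding *Cadps* transcript and was for that reason a promoter site. None of the 3 sites of *Fezf2* held a GLI core, exact or with 1 mismatch, in 9876 bp of sequence.

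*Cux1* (ENSMUSG00000029705.17) and *Cux2* (ENSMUSG00000042589.18) encode related homeodomain factors of upper-layer neurons and are both transcribed from the minus strand of chromosome 5, at 136248135 to 136567490 and 121856366 to 122050102. *Cux1* had 1 site, chr5:136487398-136488877, of 1480 bp in intron 1 of the main transcript of 24 exons, 79.4 kb downstream of the TSS. Its ratio of observed to expected CpG dinucleotides was 0.146, and 89.8% of the sites had at least this ratio. *Cux2* had 3 sites. The one inside the gene, chr5:122000060-122001159, was 1100 bp wide in intron 2 of the main transcript of 23 exons, 49.5 kb downstream of the gene-level TSS, and its midpoint was 1735 bp from the start of a shorter coding transcript. The other 2 were upstream of *Cux2*. The site chr5:122079253-122081998 was in intergenic sequence 30.5 kb from the *Cux2* TSS and 20.3 kb from that of *Myl2*, which encodes a myosin light chain of heart and slow muscle. The site chr5:122131487-122133260 covered 2 transcript starts of *Ccdc63*, 82.3 kb from *Cux2*. Of these 4 sites 1 was thus centred in an intron of *Cux1* and 1 in an intron of *Cux2*, and no site covered the gene-level TSS of either gene.

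*Pou3f2* (ENSMUSG00000095139.2), at 22482780 to 22488366 on chromosome 4, minus strand, is a gene of 1 exon. Its single site, chr4:22486708-22493028, was 6321 bp wide, the widest of the 14, and only 1.39% of the sites on chromosomes were at least as wide. It covered the TSS and all 1335 bp of the coding sequence, and reached upstream past the start of the long noncoding RNA gene *Gm30731*, which is transcribed in the opposite direction. The next sites were 482 kb upstream and 712 kb downstream, and *Pou3f2* was still the nearest protein-coding gene to the former. *Pou3f3* (ENSMUSG00000045515.3), on the plus strand of chromosome 1 from 42695768 to 42703176, likewise has 1 exon, but no site covered its TSS or any of its 1491 bp of coding sequence. Its 3 sites lay on both sides of the gene. The site chr1:42684079-42688596, of 4518 bp, was 9.43 kb upstream, inside the long noncoding RNA gene *Pantr1*. The sites chr1:42710833-42712817 and chr1:42716695-42719445, of 1985 and 2751 bp, were 16.1 and 22.3 kb downstream and separated by 3877 bp. The former had its midpoint inside *Pantr2*, another noncoding gene, 1629 bp from the start of one of its transcripts. The window of *Pou3f3* contained no other protein-coding TSS, and neither did that of *Pou3f2*.

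The sequences before the RefSeq starts of the genes whose start was inside a site, *Fezf2* and *Pou3f2*, are shown with that of *Pou3f3*, the close relative of *Pou3f2* whose start was not. They come from the RefSeq promoter table for GRCm38.p6, which had an entry for all 9 genes, and each is read in the direction of its gene. For *Fezf2* only the 156 bases outside annotated UTRs are printed. Capitals mark the SP motif GGGCGGGG, which was present in 16.1% of all 32851 promoters of the table in the same 250 bases, against 0.225% for the GLI core.
Fezf2, chr14:12345960-12346115, minus strand: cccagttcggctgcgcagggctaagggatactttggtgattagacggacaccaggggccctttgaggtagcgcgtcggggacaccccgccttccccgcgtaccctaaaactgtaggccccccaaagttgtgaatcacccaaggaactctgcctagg
Pou3f2, chr4:22488367-22488616, minus strand: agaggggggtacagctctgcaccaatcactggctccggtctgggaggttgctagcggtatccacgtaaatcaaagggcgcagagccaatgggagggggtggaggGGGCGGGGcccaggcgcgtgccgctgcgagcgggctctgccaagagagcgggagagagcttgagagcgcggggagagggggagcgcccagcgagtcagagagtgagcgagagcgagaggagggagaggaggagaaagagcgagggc
Pou3f3, chr1:42695518-42695767, plus strand: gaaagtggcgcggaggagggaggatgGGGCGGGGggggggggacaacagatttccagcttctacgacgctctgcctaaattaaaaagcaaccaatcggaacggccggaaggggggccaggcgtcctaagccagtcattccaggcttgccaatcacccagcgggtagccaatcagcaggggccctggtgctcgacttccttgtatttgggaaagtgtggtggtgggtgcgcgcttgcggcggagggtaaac
The 3 stretches had GC contents of 60.3%, 66.8% and 60.8%. The SP motif occurred once in *Pou3f2* and once in *Pou3f3* and was not in the *Fezf2* stretch, and none held any of the other 8 short motifs searched.

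*Rorb* (ENSMUSG00000036192.15), at 18930605 to 19111196 on chromosome 19, minus strand, had no site in its window of 281 kb. The nearest site was 1336 kb downstream, nearest to *Pcsk5*, and 8.31% of protein-coding genes were at least as far from a site. On the upstream side the next site was 1682 kb away, nearest to *Aldh1a7*. Both of these distant sites held an exact GLI core, as did 12.2% of the sites on chromosomes. The first site beyond the *Eomes* window on its downstream side held one too. Over the 9 genes the median distance from the TSS to the nearest site was 22.1 kb, against 177 kb for all protein-coding genes, whose middle range ran from 55.4 kb (25th percentile) to 487 kb (75th percentile). In ascending order the genes were *Pou3f2*, *Fezf2*, *Bcl11b*, *Pou3f3*, *Eomes*, *Cux2*, *Cux1*, *Tbr1* and *Rorb*, and the plot of distances to the nearest site shows 7 of them at 79.4 kb or less and the last 2 at 1006 and 1336 kb, with none between.

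**Figure D2:**
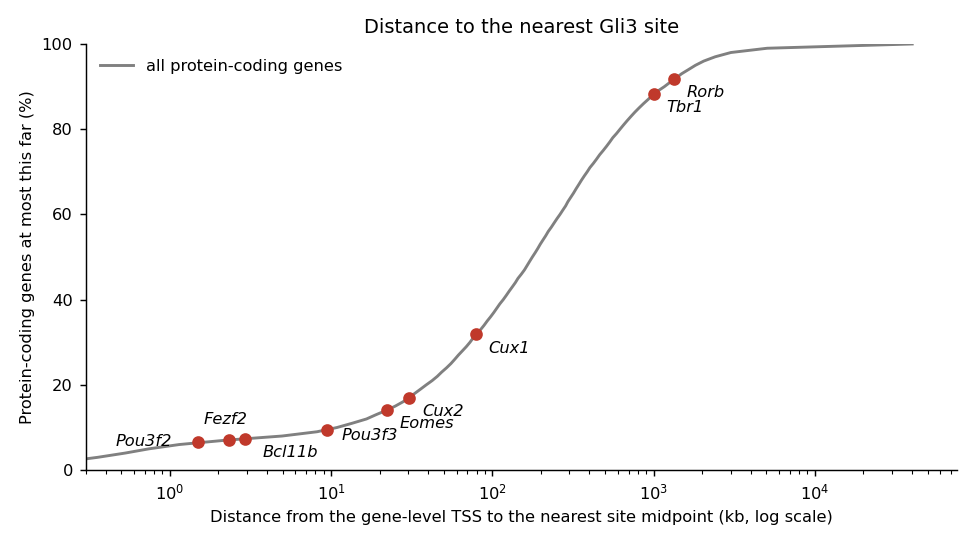
Distance in kb (log scale) from the gene-level TSS to the nearest Gli3 site midpoint, and percent of the 21938 protein-coding genes at most that far. The grey curve is drawn over all protein-coding genes and red points mark the 9 genes, which lie on it by construction; *Pou3f2* is closest at 1502 bp and *Rorb* farthest at 1336 kb.

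Genes of the same families were looked at by the same rule. The relatives of the 9 genes, *Tbx21*, *Bcl11a*, *Fezf1*, *Pou3f1*, *Pou3f4* and *Rora*, held 6 sites, in 4 of the 6 windows (66.7%, 95% Wilson interval 30 to 90.3%). Of all protein-coding genes, 37.4% had a site. *Bcl11a*, which encodes the zinc finger factor Ctip1, had 3 sites where *Bcl11b* had 1, and its TSS was inside a site, unlike that of *Bcl11b*. *Fezf1* had 1 site, 32.8 kb from its TSS, where *Fezf2* had 3. *Pou3f1* had 1 site, 17.3 kb from its TSS, and *Pou3f4* had none within 4592 kb. *Rora* had 1 site, inside the gene and 213 kb from the TSS, where *Rorb* had none. *Tbx21*, a T-box gene of lymphocytes, had none. These are counts of 0 to 3 sites per gene with no error.

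A list of 25 other genes was chosen for projection neurons and their precursors, and the cells that express each gene could not be checked here. It gave 22 sites around 13 genes (52%, 95% Wilson interval 33.5 to 70.0%), against 37.4% of all protein-coding genes. *Insm1*, a zinc finger factor of basal progenitors, had the most, 4 sites, all of them nearest to its own TSS and 1 of them covering it. *Neurod2*, *Ldb2*, *Cplx3*, *Reln*, *Tshz2* and *Nhlh1* had 2 sites each. The nearest protein-coding TSS was the gene's own at 2 sites of *Ldb2*, at 1 site each of *Neurod2*, *Tshz2* and *Nhlh1*, and at 0 of *Cplx3* and *Reln*. Apart from *Insm1*, the TSS was covered only at *Tle4*, a Groucho corepressor gene of deep-layer neurons. The 12 genes with no site included *Neurod1*, *Neurod6* and *Etv1*. The windows of this list had 0.264 sites per 100 kb, near the 0.269 of all protein-coding genes. They summed to 8348 kb and reached 1054 kb at *Sox5*, where the median window of all protein-coding genes was 200 kb. Neither the share of genes nor the density was adjusted for window length. The plot of the number of sites per gene shows 0 sites at 22.2% of the 9 genes, at 12 of these 25 genes and at 62.6% of all protein-coding genes.

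**Figure D3:**
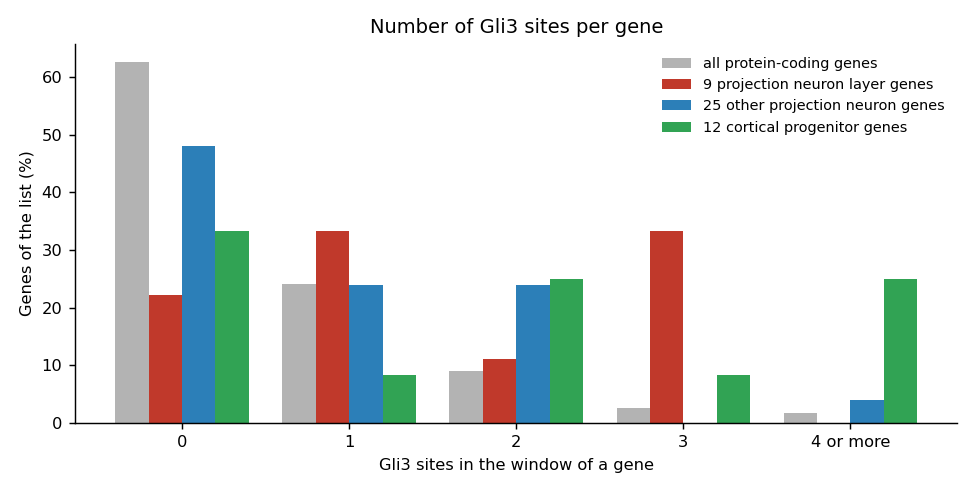
Percent of the genes of each list with 0, 1, 2, 3 or 4 or more Gli3 sites in the window (gene body or within 100 kb of the TSS). Bars are all 21938 protein-coding genes (grey), the 9 genes described here (red), 25 other projection neuron genes (blue) and 12 cortical progenitor genes (green); 3 sites occur at 3 of the 9 genes and at 2.64% of all protein-coding genes.

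The 14 sites had a median width of 2366 bp, from 472 to 6321 bp, against a median of 1995 bp for the 4099 sites on chromosomes. At 4 kb or more, the sites at *Pou3f2*, at *Fezf2* and upstream of *Pou3f3* made up 3 of the 14 (21.4%, 95% Wilson interval 7.57 to 47.6%), against 10.3% of all sites. All 3 were within 10 kb of the TSS of their gene. The median GC content was 51.9%, from 43.3 to 61.4%, against 51.4% for all sites. The site of *Bcl11b* was the richest in GC and the site in *Cadps* the poorest. The median ratio of observed to expected CpG was 0.352 against 0.304, and a median of 15.4% of the bases was soft-masked as repeat against 12.4%. The middle ranges of all sites, from 47.1 to 55.7% for GC content and from 1325.5 to 2927.5 bp for width, contained both medians.

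**Figure D4:**
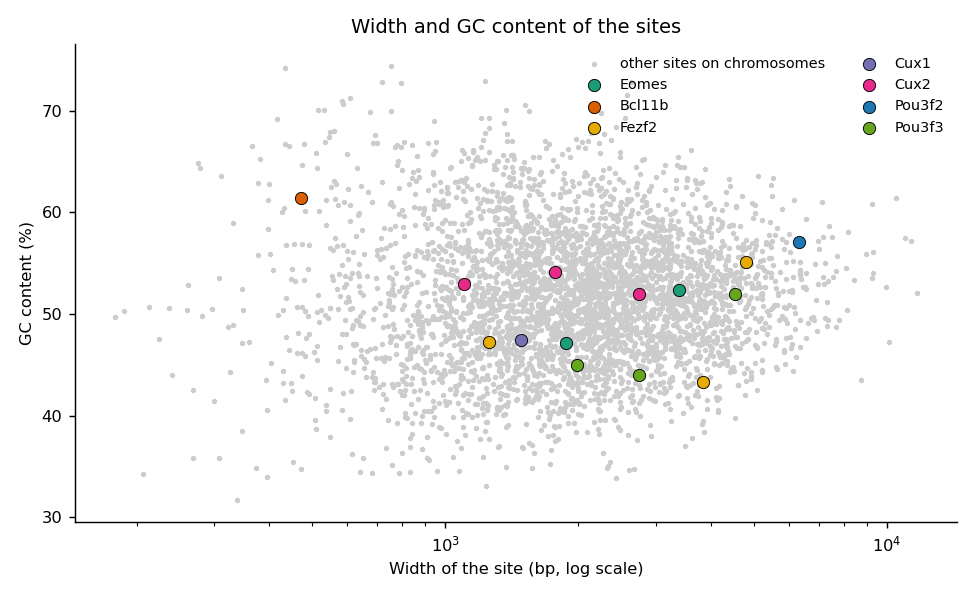
Width in bp (log scale) and GC content in percent of each Gli3 site on chromosomes. Coloured points are the 14 sites by gene and grey points the other sites; the *Bcl11b* site is narrow and rich in GC (472 bp, 61.4%) and the *Pou3f2* site is the widest of the 14 (6321 bp).

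An exact GLI core was present in 1 of the 14 sites (7.14%, 95% Wilson interval 1.27 to 31.5%), against 12.2% of the sites on chromosomes, and in 0 of their 28 flanks, which are regions of the same length on either side at a distance of 1 site length. Of these flanks 2, which belong to the downstream sites of *Pou3f3*, overlapped the other of these sites by 93 and 1625 bp. With at most 1 mismatch the core was in 6 of the 14 sites (42.9%, interval 21.4 to 67.4%), against 64.7% of all sites and 32.1% of the flanks. Per length there were 0.183 such matches per kb in the 14 sites, 0.144 in their flanks and 0.475 in all sites. Without the 2 overlapping flanks the values were 26.9% of 26 flanks and 0.125 per kb. The share of all sites lies inside the interval of the 14, and the difference was not tested. The mismatched copies outside coding sequence and UTR are shown in the direction of the core, with the 9 matched bases in capitals and 20 bases on either side, to show how each departs from the core. Positions are counted from 1 at the 5′ end of the core, and the base of the core is given first.
Cux2 intron, A2C, chr5:122000647-122000695, plus strand: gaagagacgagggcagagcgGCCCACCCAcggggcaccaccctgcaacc
Ccdc63 promoter site, A2C, chr5:122132370-122132418, minus strand: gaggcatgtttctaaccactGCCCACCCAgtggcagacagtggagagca
Pou3f3 at Pantr2, A2G, chr1:42711611-42711659, plus strand: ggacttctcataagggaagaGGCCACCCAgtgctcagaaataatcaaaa
Pou3f3 downstream, G1C, chr1:42718699-42718747, minus strand: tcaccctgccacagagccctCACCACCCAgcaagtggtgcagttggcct
The copy in the *Cux2* intron was 62 bp from the middle of its site, that at *Ccdc63* 21 bp, and those near *Pou3f3* 190 and 653 bp. A further copy at *Ccdc63* had the change G1T, 451 bp from the middle, and a copy in the coding sequence of *Pou3f2* had A2G, 2494 bp from the middle. All 6 changes were at position 1 or 2, and none touched the bases CCACCCA. The position of the change was not tabulated for the flanks or for other sites. Whether this placing is particular to the member sites was therefore not tested.

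The other 8 sites had no match even with 1 mismatch. For 5 of them the middle 100 bases are shown on the plus strand, for 1 site each of *Eomes*, *Bcl11b*, *Fezf2*, *Cux1* and *Pou3f3*. The list gives no point of highest signal, so these bases need not be where Gli3 was bound. None of these stretches held any of the 9 motifs searched, so there are no capitals.
Eomes upstream, chr9:118456036-118456135: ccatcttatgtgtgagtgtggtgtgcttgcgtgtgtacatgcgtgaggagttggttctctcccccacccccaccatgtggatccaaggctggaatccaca
Bcl11b upstream, chr12:108006474-108006573: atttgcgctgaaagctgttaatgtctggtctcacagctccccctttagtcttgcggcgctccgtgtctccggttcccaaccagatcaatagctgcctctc
Fezf2 downstream, chr14:12339553-12339652: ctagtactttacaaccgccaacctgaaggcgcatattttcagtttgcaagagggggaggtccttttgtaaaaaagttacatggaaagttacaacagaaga
Cux1 intron, chr5:136488088-136488187: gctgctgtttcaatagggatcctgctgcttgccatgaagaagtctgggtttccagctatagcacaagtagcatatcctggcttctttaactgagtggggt
Pou3f3 upstream, chr1:42686288-42686387: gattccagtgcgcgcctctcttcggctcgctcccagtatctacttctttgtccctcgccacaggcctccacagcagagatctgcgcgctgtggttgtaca
Their GC contents ran from 41.0% at *Fezf2* to 59.0% at *Pou3f3*, and their number of CpG dinucleotides from 0 at *Cux1* to 7 at *Pou3f3*.

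Short motifs of other families, several of them bound by the families of the 9 genes themselves, were counted on both strands. The motif AGGTCA is only part of the ROR motif and was searched alone, so a match need not be a ROR site. It was in 14 of 14 sites (95% Wilson interval 78.5 to 100%), against 64.7% of all sites and 82.1% of the flanks. Per length it occurred 0.810 times per kb in the sites, 0.705 in the flanks and 0.615 in all sites. The bHLH motif CAGCTG was in 10 of the 14 (71.4%), against 68.6% of all sites. It occurred 0.601 times per kb, against 0.392 in the flanks and 0.675 in all sites. The site of *Pou3f2* held 7 of the 23 copies. The related motif CAGATG was in 12 sites (85.7% against 72.8% of all sites), at 0.679 per kb against 0.771 in the flanks and 0.824 in all sites. The homeodomain motif TAATTA was in 6 sites (42.9% against 38.2%), the SP motif GGGCGGGG in 3 (21.4% against 33.8%), the POU motif ATGCAAAT in 2 (14.3% against 11.8%) and the CUX motif ATCGAT in 2 (14.3%, against 287 of the 4099 sites). The T-box motif AGGTGTGA was in 0 of the 14 sites (95% Wilson interval 0 to 21.5%), against 9.47% of all sites. Both sites with the POU motif were sites of *Fezf2*. Those with the CUX motif were at *Fezf2* and at *Ccdc63*, the latter a site of the *Cux2* window. Neither motif was in the sites of *Pou3f2*, *Pou3f3* or *Cux1*. The shares were not adjusted for the width of the sites, several of which belong to the same gene, and no difference was tested. As a description, the intervals of the shares contain the values of all sites for every motif except AGGTCA. The interval of AGGTCA contains the share of the flanks, also without the 2 that overlapped a site (80.8%).

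**Figure D5:**
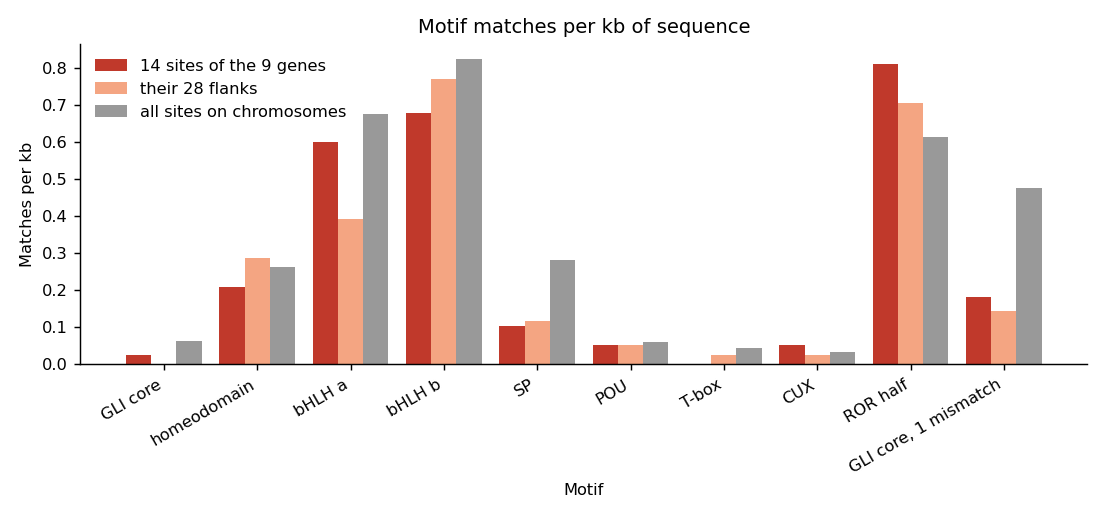
Matches per kb of sequence for each motif in the 14 sites of the 9 genes (red), their 28 flanks (light red) and all 4099 sites on chromosomes (grey), with both bHLH motifs drawn apart (a, then b in the order given in the text). The GLI core with at most 1 mismatch is at 0.183 per kb in the 14 sites and 0.475 in all sites.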

How the data were processed

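Gli3 ChIP-seq was done on cortices of wild-type mouse embryos at embryonic day 15, with 3 ChIP and 3 input libraries per the labels. The authors deposited 1 list of positions on mm10. According to its heading it is the optimal set kept by irreproducible discovery rate from paired ends of 85 bases mapped with bowtie2 after a repeat filter, and the submitters' processing notes name MACS2 and SAMtools. Peak calling thresholds are not given in the sources used here, and they decide which sites are listed and how wide they are. No count or score is in the list.

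Starts were made 1-based. Genes came from GENCODE M21 and sequence from GRCm38.p6, the assembly of mm10, for the 4099 sites on chromosomes, while 15 on scaffolds had no sequence measured. Each of the 9 genes is described with every site in its window, and the members, lists and motifs were chosen with earlier results of these data known. From the other lists, the genes with the most sites and those with a covered TSS were named, while *Neurod1*, *Neurod6*, *Etv1*, *Pax6*, *Emx2*, *Vim*, *Fabp7* and *Hopx* were picked after their values were seen, and the rest entered the counts only. Some genes fixed for these lists were left out and are not reported here. Motifs were exact matches on either strand. Motifs that read the same on both strands were counted once per position. Wilson intervals cover counting error over sites or, for shares of genes, over genes only. The genes were chosen and not drawn at random, so these intervals serve as a description. No test between conditions exists here, as the list joins all replicates. The motif scan and the window rule were tested on simulated data. The work used matplotlib 3.10.9, pysam 0.24.0, scipy 1.17.1, numpy 2.4.6 and python 3.11.15.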

Additional observations from a re-analysis of the deposited data

How the results depend on the processing

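No replicate could be left out and no paired analysis was possible because the list joins the replicates. The number of sites around the 9 genes, 14, changed by over 1.5 times only when the gene body and 10 kb on either side were searched, to 9 sites around 6 genes, since both sites of *Eomes* are farther away. It was 12 with windows of 50 kb, 21 with 250 kb, 17 when the starts of any transcript counted, of which 6 were then at *Cux2*, and 11 when only the nearest protein-coding gene counted. In all of these except the first, sites lay around the same number of genes, 7. The share of all protein-coding genes is not constant over such windows. By distance from the TSS alone, 23% of them had a site within 48.5 kb and 59% within 252 kb. *Tbr1* and *Rorb* had no site under any window tried. The share of promoter sites fell from 50% to 21.4% when the promoter reached 2 kb upstream only, by the construction of that window. The share of sites with a GLI core rose from 7.14% to 42.9% with 1 mismatch allowed. The share of sites nearest to the member fell from 78.6% to 14.3% when noncoding genes were counted too. The other alternatives stayed within 1.5 times a count or inside the interval of a share, and the RefSeq starts, which were chosen after seeing the data, also gave 14 sites and 2 covered starts. The interval of the promoter share is wide, at 26.8 to 73.2%. It thus held shares of 28.6% within 1 kb of any start and 35.7% with coding transcripts only. No share of all sites is given for these other promoter definitions. The number of sites, 14, and the lack of heights limit every share above. Leaving out the 2 flanks that overlap a site was likewise chosen after seeing the data.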

Other observations

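Genes that mark the radial glia from which the projection neurons arise were looked at by the same rule. Of a list of 12, 8 had a Gli3 site (66.7%, 95% Wilson interval 39.1 to 86.2%), against 37.4% of all protein-coding genes. There were 23 sites in all and 0.958 sites per 100 kb of window, against 0.638 for the 9 projection neuron layer genes and 0.269 for all protein-coding genes. *Hes1*, an effector of Notch signalling, had 5 sites, and *Sox2*, a stem cell factor, and *Hes5* had 4 each. The median was 2 sites per gene against 1 for the layer genes. The TSS was inside a site at *Hes1*, *Hes5* and *Nes*, 3 of the 12 genes, where it was inside a site at 2 of the 9 layer genes and at 6.22% of protein-coding genes. *Pax6* had 1 site, 47.4 kb from its TSS, and *Emx2*, *Vim*, *Fabp7* and *Hopx* had none. An exact GLI core was in 1 of the 23 sites, against 12.2% of the sites on chromosomes. It was near *Slc1a3*, which encodes a glutamate transporter of radial glia and astrocytes. Whether the lists differ was not tested.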
